A study of Mus musculus with 32 samples.

Results

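The genes described here are the fibroblast growth factor (FGF) ligand genes of the mouse, a family of genes for small signal proteins. They were chosen by a value of these data, the low ratio of Fgf7 in the eye, and then by name. Every probe whose gene symbol was Fgf followed only by digits was taken, and the receptor genes were left out. This gave 15 probes of 13 genes, of 9030 named genes on the array. The genes were Fgf1, Fgf2, Fgf3, Fgf4, Fgf7, Fgf8, Fgf9, Fgf10, Fgf11, Fgf12, Fgf14, Fgf15 and Fgf18. Of these, 11 had 1 probe, and Fgf12 and Fgf15 had 2 each. Ligand genes without a probe of that name, such as Fgf5, Fgf13 and Fgf22, were not analysed here.

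The study set organs of sighted C3H mice against the same organs of control C3H mice. The control label, C3H.pde6b-, names Pde6b, the rod phosphodiesterase gene whose loss makes the photoreceptors of C3H mice degenerate. Both sides share the C3H background. The design text describes the sighted animals as 6 males of the C3H seh line and gives no further allele, and the labels name no treatment and no age. Each of the 32 arrays carried RNA of a sighted sample and, in the other colour, a pool of RNA from 6 control males. There were 12 eye, 12 brain and 8 heart arrays. The heart and brain pools were made from the same control mice, and the eye pool from others. RNA came from homogenised whole organs, so fewer cells of a type and less RNA per cell cannot be told apart.

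Most FGF ligands are secreted. They bind heparan sulfate chains on the cell surface and, with them, receptor tyrosine kinases (Fgfr1 to Fgfr4). These signal through adaptor proteins, the Ras and MAP kinase relay and PI3 kinase to transcription factors of the ETS and immediate early families, and feedback inhibitors such as the Sprouty proteins damp the signal. Fgf7, also called keratinocyte growth factor, is made by stromal cells and acts on epithelia that carry a splice form of Fgfr2. In the eye, FGFs are known for roles in lens fibre formation, in growth of the lacrimal gland and cornea, and in retinal development and photoreceptor survival. A subgroup, Fgf11 to Fgf14, lacks a secretion signal, stays inside the cell and binds voltage-gated sodium channels.

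A value below is a log2 ratio of sighted over control RNA, so a value below 0 means less RNA in sighted mice. Ratios carry no level, so nothing is said of how strongly a gene was expressed, of the order of levels of the genes, or of the tissue identity of the samples by level. Arrays with consecutive numbers and opposite dyes were averaged to 1 replicate, so eye and brain each had 6 replicates and heart had 4. Nothing in the labels ties an array to an animal, so p-values rest only on how far these replicates differ, and part of that may be technical. The control side is 1 pool an organ, and its animal-to-animal spread is in no error given here. The direction of the ratio is likely, not stated in the labels, and rests on rod photoreceptor genes. Their median Cy5 over Cy3 log2 ratio was 4.98 to 5.74 on eye arrays with sighted RNA in Cy5 and -5.42 to -4.06 on those with sighted RNA in Cy3. A gene was called where limma gave a Benjamini-Hochberg adjusted p under 0.05 over all features of the organ, which are named genes and unnamed probes. The share of missing values was 1.62 to 5.10% on eye arrays and 1.01 to 5.05% on brain arrays. On heart arrays it was 5.96 to 12.0%, except for array 7 with 61.6%. The number of arrays limits the precision.

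Fgf7 was far lower in sighted than in control eyes. Its 6 replicates ran from -2.97 to -2.45 with a median of -2.62, and the mean was -2.67 ± 0.23 (SD, n = 6), 6.35-fold lower in sighted eyes. Every replicate was below 0, and the highest lay further from 0 than any eye replicate of the other 12 ligand genes. The value was the lowest of 15874 features tested in eye, of which 8561 were named genes. Features left with too few replicates, also where repeated top values were set to missing, are not in this ranking. The next named gene from the bottom was Ucma, a cartilage matrix gene, at -2.01. The replicates of Ucma ran close to those of the globin gene Hba-a1, as given below. Since Fgf7 was selected on this ratio, these values are a description and carry no test.

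On single arrays Fgf7 was below 0 in 12 of 12 eye hybridisations. With sighted RNA in Cy5 its values ran from -2.88 to -1.86, with a mean of -2.14. With sighted RNA in Cy3 they ran from -3.82 to -2.90, with a mean of -3.19. The sets of 6 arrays did not overlap, so the Cy5 over Cy3 ratio of the Fgf7 probe was shifted towards Cy5. The size of this dye component was 0.53 on the log2 scale in eye, and the mean over both orientations cancels it. It does not belong to this probe alone. The median deposited Cy5 over Cy3 ratio over all probes ran from -0.055 to 0.539 on eye arrays.

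In brain, Fgf7 was close to equal in sighted and control mice. Its replicates ran from -0.22 to 0.004 with a median of -0.13, and the mean was -0.12 ± 0.097 (SD, n = 6; 95% interval -0.25 to 0.013). The ratio did not pass the test (limma adjusted p = 0.959), and 5 of 6 replicates were below 0. The 6 brain arrays with sighted RNA in Cy5 had 0.23 to 0.69 and the 6 with sighted RNA in Cy3 had -1.05 to -0.32. Every array of the first set was above 0 and every array of the second below it, with a dye component of 0.55, near that in eye. The medians over all probes were smaller on brain arrays, from 0.002 to 0.105, so the array-wide part differed between the organs. Taken alone, each orientation passed the test in opposite directions, at 0.43 (limma adjusted p 0.0454) and -0.67 (limma adjusted p 0.0172).

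In heart, Fgf7 had replicate values of -0.69, 0.093, -1.20 and 0.75. Replicates lay on both sides of 0, with a mean of -0.26 ± 0.86 (SD, n = 4; 95% interval -1.07 to 0.54) and a limma adjusted p of 0.774. The interval reaches well to either side of 0. The highest value rests on array 7, the one with most missing values, where Fgf7 read 2.72. Without that replicate the mean was -0.60 (limma adjusted p 0.571), and without replicate 3 it was 0.051. The dye component was 0.58. Fgf7 ranked 2489 of 12755 features from the lowest in heart. Differences between organs were not tested.

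**Figure D1:**
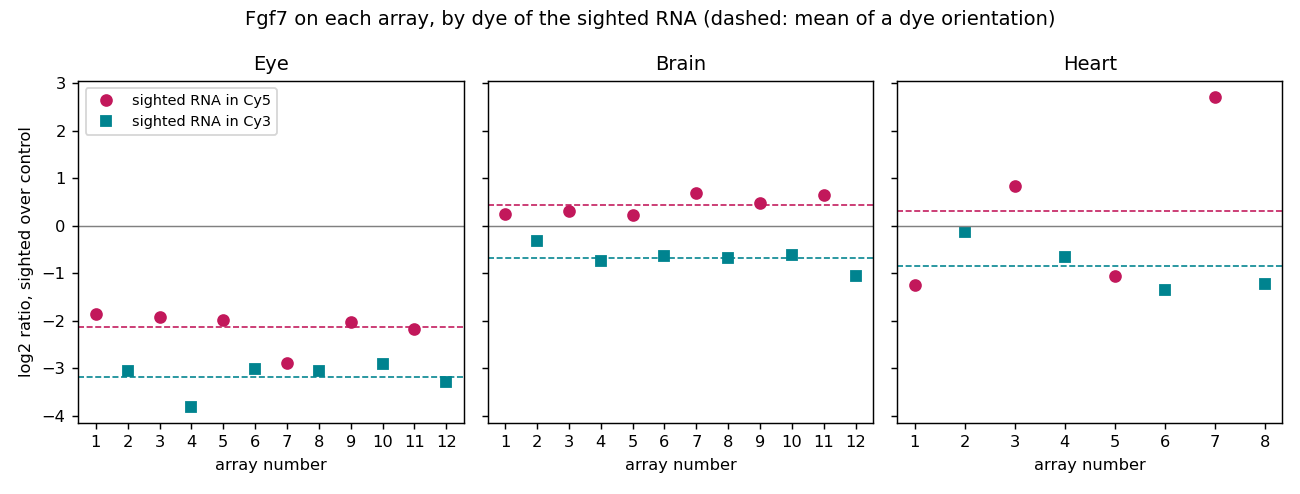
Log2 ratio of sighted over control RNA for the Fgf7 probe on each array (x axis, array number) of eye, brain and heart. Circles are arrays with sighted RNA in Cy5, squares those with sighted RNA in Cy3, and dashed lines the mean of each orientation. All 12 eye arrays lie between -3.82 and -1.86, while the brain arrays split by dye around 0.

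Fgf3 and Fgf10 stand closest to Fgf7 in sequence, and Fgf10 also acts on epithelia through the same splice form of Fgfr2. Fgf10 had eye replicates from -0.41 to -0.021 with a median of -0.21 and a mean of -0.22 ± 0.14 (SD, n = 6). All 6 were below 0, and the lowest was still nearer to 0 than any replicate of Fgf7. Fgf10 had -0.51 with sighted RNA in Cy3 alone and 0.074 with sighted RNA in Cy5 alone, values that still hold the dye component which the mean over both cancels. Fgf3, best known from development of the inner ear, had eye replicates from -0.49 to 0.28 with a median of -0.17 and a mean of -0.12 ± 0.33 (SD, n = 6). In brain the means were 0.12 ± 0.28 for Fgf10 and 0.024 ± 0.30 for Fgf3 (SD, n = 6 each). In heart Fgf10 had 0.12 ± 0.39 (SD, n = 3), and Fgf3 had a value in 1 replicate and was not tested.

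Fgf1 and Fgf2, the acidic and basic FGFs, reach the outside of the cell without a classical secretion signal. Fgf2 had eye replicates from -0.87 to -0.062 with a median of -0.20 and a mean of -0.29 ± 0.30 (SD, n = 6). All were below 0, and replicate 5 stood apart from the other 5, which ran from -0.31 to -0.062. Fgf1 had eye replicates from -0.21 to 0.21 around 0, with a median of -0.11 and a mean of -0.041 ± 0.18 (SD, n = 6). In brain these were the lowest means of the family and those with the widest spread, at -0.41 ± 0.61 for Fgf1 and -0.39 ± 0.81 for Fgf2 (SD, n = 5 each). The Fgf2 mean in brain rested on replicate 3 at -1.78, with the other 4 from -0.41 to 0.22. Fgf2 had 0.24 ± 0.56 (SD, n = 3) in heart, and Fgf1 had a value in 1 heart replicate.

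Fgf4, Fgf8, Fgf18 and Fgf9 are secreted ligands known mostly from the embryo, Fgf9 also from neurons and glia. Fgf9 was the only member called higher in eye, with replicates from -0.030 to 0.38, a median of 0.24 and a mean of 0.22 ± 0.13 (SD, n = 6). Replicate 2 alone was below 0. Fgf4 had eye replicates from -0.26 to 0.56 with a mean of 0.11 ± 0.28, Fgf8 from -0.46 to 0.47 with a mean of 0.042 ± 0.30, and Fgf18 from -0.85 to 0.44 with a mean of -0.076 ± 0.46 (SD, n = 6 each). These 3 lay on both sides of 0. In brain Fgf4 was below 0 in 6 of 6 replicates, from -0.35 to -0.009, with a mean of -0.15 ± 0.14 (SD, n = 6), and did not pass the test (limma adjusted p = 0.959). Fgf8, Fgf9 and Fgf18 had brain means of 0.022 ± 0.18, 0.14 ± 0.29 and 0.14 ± 0.37 (SD, n = 6 each). Fgf4 had the widest spread of the family in heart, with replicates of -0.34, -0.054, -1.04 and 2.21 and a mean of 0.19 ± 1.41 (SD, n = 4). The high value was again replicate 4, and without it the mean was -0.48. Fgf8 and Fgf18 had heart means of 0.003 ± 0.57 and 0.30 ± 0.31 (SD, n = 3 each), and Fgf9 had 2 heart replicates, both below 0, and was not tested.

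Fgf15, the mouse counterpart of human FGF19, is an endocrine ligand of the gut that lowers bile acid synthesis, and it is also expressed in the embryonic brain and retina. It was lower in sighted eyes, with replicates from -0.58 to -0.21, a median of -0.42 and a mean of -0.41 ± 0.13 (SD, n = 6). All 6 were below 0, and after Fgf7 this was the lowest mean of the family in eye. The 2 probes of Fgf15 differed in size. Probe 20548 had -0.68 ± 0.28 (SD, n = 6) and was below 0 on 11 of 12 arrays. Probe 20298 had -0.14 ± 0.082 (SD, n = 6) and did not pass when taken alone. In heart Fgf15 had the highest mean of the family, with replicates of 1.33, 0.60 and 0.64 and a mean of 0.85 ± 0.41 (SD, n = 3; 95% interval 0.30 to 1.41). It did not pass the test over all features (limma adjusted p = 0.568, unadjusted p 0.0111). In heart replicate 2 its probes lay on either side of 0, at -0.27 for probe 20298 and 1.46 for probe 20548, and probe 20548 had no value in the other heart replicates. Fgf15 had 1.63 on heart arrays with sighted RNA in Cy5 and -0.21 on those with sighted RNA in Cy3. In brain it had 0.17 ± 0.37 (SD, n = 6).

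Fgf11, Fgf12 and Fgf14 encode the intracellular homologous factors that modulate sodium channels of neurons and heart muscle. Fgf12 had eye replicates from -0.10 to 0.63 with a median of 0.21 and a mean of 0.23 ± 0.26 (SD, n = 6). Its probes disagreed. Probe 17170 was above 0 on 12 of 12 eye arrays, with replicates from 0.20 to 0.82 and a mean of 0.46 ± 0.22 (SD, n = 6). Probe 4242 was above 0 on 5 and below on 7, with 0.011 ± 0.35 (SD, n = 6). Probe 17170 had almost no dye component in eye, at 0.027. Which transcripts either probe detects is not given in the sources used here. Fgf11 had eye replicates from 0 to 0.33 with a mean of 0.15 ± 0.14 (SD, n = 6). Fgf14 had a mean of 0.22 ± 0.67 (SD, n = 6) that rested on replicate 6, at 1.57 against -0.24 to 0.096 in the others. Array 12 read 3.46, and without replicate 6 the mean was -0.044.

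In brain, where these 3 genes are known as neuronal, the means were -0.009 ± 0.29 for Fgf11, 0.018 ± 0.14 for Fgf12 and 0.040 ± 0.52 for Fgf14 (SD, n = 6 each). Both Fgf12 probes were near 0 there, at -0.004 ± 0.15 and 0.041 ± 0.26 (SD, n = 6 each). In heart Fgf11 had replicates of 0.17, -0.23, 0.25 and 0.20 with a mean of 0.10 ± 0.22, and Fgf12 a mean of 0.19 ± 0.56 (SD, n = 4 each). Fgf14 had values in 2 heart replicates, of -0.61 and 0.43, and was not tested.

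**Figure D2:**
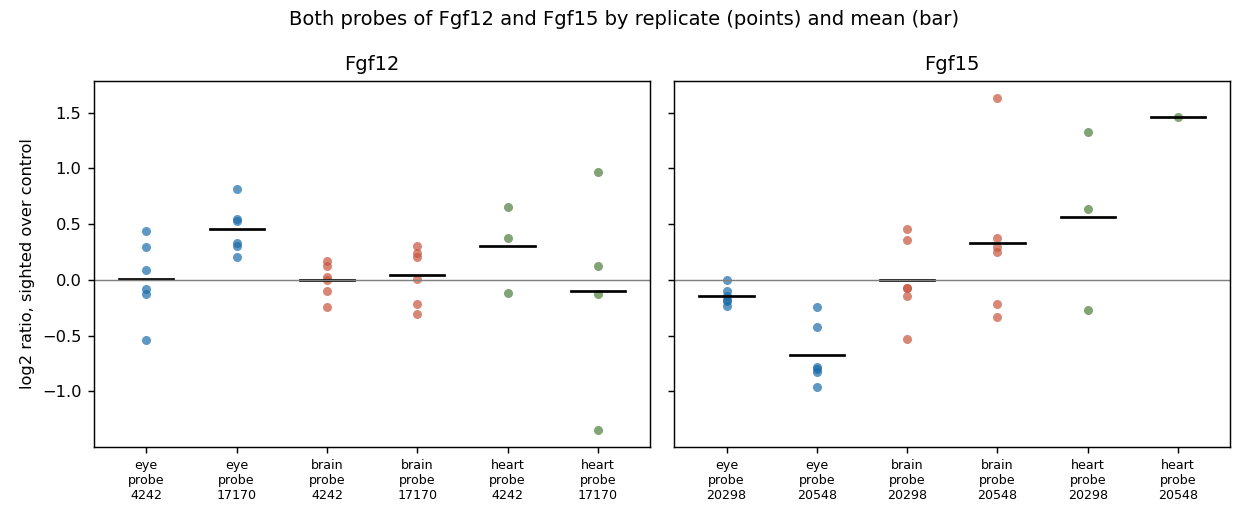
Log2 ratio of sighted over control RNA for each probe of Fgf12 and Fgf15 by organ. Points are replicates and bars their mean. In eye, probe 17170 of Fgf12 lies between 0.20 and 0.82 while probe 4242 spreads around 0, and probe 20548 of Fgf15 lies below probe 20298.

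Over the family in eye, 4 of 13 ligand genes were called, Fgf9 higher and Fgf7, Fgf10 and Fgf15 lower. Of all features 26.8% were called, 15.9% higher and 11.0% lower, and since Fgf7 was chosen on this contrast nothing is read from the count. The call of Fgf9 was lost without any replicate but replicate 2, and that of Fgf10 without any but replicate 3. Fgf15 was called whichever replicate was left out. The median of the 13 ratios was -0.041, and 0.0005 without Fgf7, beside a median of 0.027 over all features. The other 12 genes lay between -0.41 and 0.23. Their range was thus narrow beside the ratio of Fgf7, and 6 of 13 genes were above 0.

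In brain 0 of 13 ligand genes were called by limma, where 0.00621% of all features were, 1 of 16112. At an unadjusted p under 0.05 there were 657 features, among them 1 ligand gene, Fgf4 (p 0.0477 by limma). The means ran from -0.41 to 0.17, with a median of 0.022 beside -0.0035 over all features, and the adjusted p from 0.959 to 0.992. In heart 9 of 13 genes had enough replicates, and limma called 0 of them, as it called 0% of 12755 features. At an unadjusted p under 0.05 there were 1042 features and 1 ligand gene, Fgf15. The heart means ran from -0.26 to 0.85 with a median of 0.19, beside -0.013 over all features. The median SD over replicates was 0.26 for the ligand genes in eye, 0.29 in brain and 0.56 in heart, so a difference of given size was harder to call in heart.

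**Figure D3:**
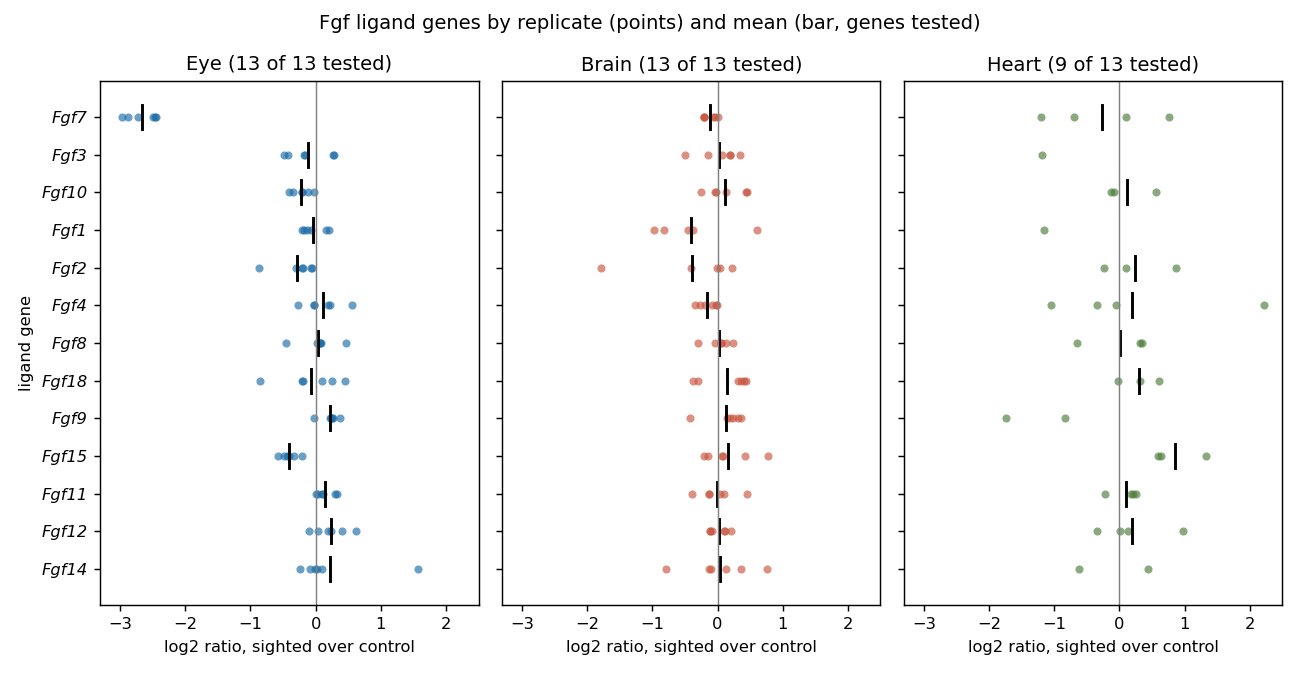
Log2 ratio of sighted over control RNA for the 13 Fgf ligand genes (rows, ordered by subfamily) in eye, brain and heart. Points are replicates and bars the mean, drawn where the gene was tested. Fgf7 in eye stands alone between -2.97 and -2.45, and heart points spread most.

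In gene order on the GRCm38.p6 assembly, per the RefSeq table, Fgf3, Fgf4 and Fgf15 follow each other. Their eye ratios were -0.12, 0.11 and -0.41, and of these only Fgf15 was called. Ano1, a chloride channel gene next to Fgf3, was lower in sighted eyes at -0.72 ± 0.26 (SD, n = 6; limma adjusted p 9.75e-04). LTO1, next to Fgf15 on the other side, was also lower, at -0.32 ± 0.17 (SD, n = 6; limma adjusted p 0.0137). Fadd, beyond Ano1, had 0.098 ± 0.13 (SD, n = 6) and was not called. Called neighbours of other ligand genes went both ways, such as Dpcd at 0.78 and Fbxw4 at -0.21, both near Fgf8. The furthest from 0 was 4833420G17Rik, near Fgf10, at 1.88. Of all features in eye 26.8% were called, and nothing is read from the calls beside Fgf3 and Fgf15. The gene that overlaps Fgf7, Fam227b, and the 2 genes beyond it on either side had no probe of that name here. The nearest neighbour with a value was Slc27a2, a fatty acid transporter gene, which fell by 0.24 ± 0.065 (SD, n = 6; limma adjusted p 0.0126) and had 0.012 with sighted RNA in Cy5 alone.

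The named genes whose ratios came nearest to those of Fgf7 were found by the root mean square difference over all 16 replicates, among 4080 genes with a value in each. They were Hba-x and Hba-a1, globin genes, Tap1, a peptide transporter gene of antigen presentation, Ucma, and Cdca8, a mitosis gene. Their differences from Fgf7 were 0.80 to 0.83, large beside the SD of Fgf7 in eye, so none of the genes compared followed it closely. The eye means were -2.01 to -1.79. Hba-x had -2.82 and -2.95 in replicates 1 and 2 and -1.56 to -0.97 in the other 4, and the other genes split the same way. Fgf7 showed no such split, with -2.45 and -2.88 in replicates 1 and 2 and -2.97 to -2.46 in the others. The likeness thus lay in a low mean in eye and values nearer to 0 elsewhere. Tap1, Ucma and Cdca8, with 1 probe each, ran close to Hba-a1 in every eye replicate. By eye replicate, Tap1 had -3.23, -3.20, -1.55, -1.79, -0.98 and -1.08, and Hba-a1 had -3.29, -3.27, -1.53, -1.56, -0.91 and -1.21. Whether the probes of Tap1, Ucma and Cdca8 read the genes they are named for was not tested.

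**Figure D4:**
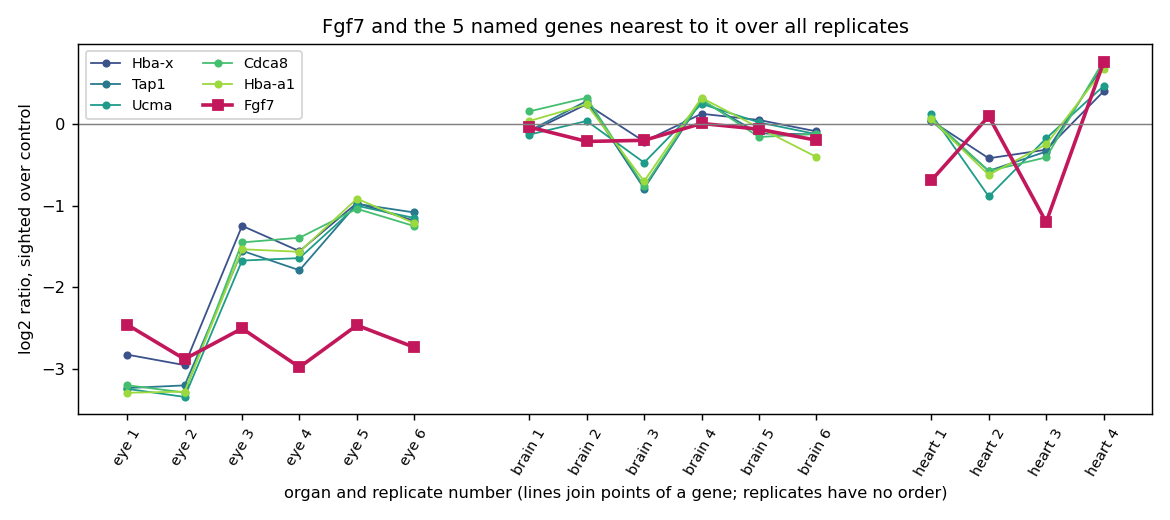
Log2 ratio of sighted over control RNA by organ and replicate for Fgf7 (squares) and its 5 nearest named genes (circles). Lines join the points of a gene and imply no order. In eye replicates 1 and 2 the 5 genes lie from -3.34 to -2.82 and in the others from -1.79 to -0.91, while Fgf7 stays between -2.97 and -2.45.

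The rest of the FGF pathway was followed with 5 lists by role, 77 genes in all, of which 43 were on the array. In eye 41 were tested and 14 were called, 4 higher and 10 lower (34.1%, beside 26.8% of all features). In eye the 30 genes below 0 outnumbered the 11 above, with a median of -0.090 beside 0.027. The split was much the same in brain, with 30 below and 12 above 0 and a median of -0.033 beside -0.0035. In heart 15 were below and 16 above. The share of all features below 0 was not counted. With every array on its own and no pairs, 9 were called in eye. In brain 0 of 42 and in heart 0 of 31 were called by limma, with adjusted p from 0.959 to 0.999 and from 0.568 to 0.966, and 1 and 3 genes were at an unadjusted p under 0.05. The genes of smallest p in each brain list were Fgfr1 at 0.13 ± 0.23, Ext1 at -0.12 ± 0.17, Sos1, a Ras activator gene, at -0.18 ± 0.28, Il17rd, a feedback inhibitor gene, at 0.22 ± 0.19, and Elk4, an ETS gene, at -0.13 ± 0.18 (SD, n = 6 each). Of these only Il17rd had an unadjusted p under 0.05 (p 0.023 by limma). In heart the genes of smallest p in each list were Fgfr1, Egr1, Sdc2, a syndecan gene, at 0.21 ± 0.18, Map2k1, a MAP kinase kinase gene, at 0.44 ± 0.25, and Cbl, a ubiquitin ligase gene, at -0.28 ± 0.34 (SD, n = 4 for the last 3). Of these only Egr1 and Map2k1 had an unadjusted p under 0.05 by limma.

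Of the receptor genes, 3 were tested in eye and 0 were called by limma, or reached an unadjusted p under 0.05. Of all features 26.8% were called. Fgfr1 had -0.17 ± 0.32 (SD, n = 6; adjusted p = 0.316) and its 2 probes had -0.35 and 0.065. On arrays of 1 orientation it had 0.38 with sighted RNA in Cy5 and -0.64 in Cy3. Fgfr4 had -0.053 ± 0.12 and Fgfrl1, a receptor without a kinase domain, -0.093 ± 0.14 (SD, n = 6 each). Fgfr3 had 4 of 6 replicates, from -0.34 to -0.022, and was not tested. Fgfr2, the receptor gene of Fgf7, was not analysed here. In heart Fgfr1 had 0.47 ± 0.33 (SD, n = 3; adjusted p = 0.568 by limma).

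The heparan sulfate list held genes for proteins that carry the chains and for enzymes that build or edit them. Of its 12 genes 2 were called higher and 4 lower in eye, and 6 did not pass. Of all features 15.9% were called higher and 11.0% lower. Sdc1, the main syndecan of epithelia, had replicates from -1.65 to -0.77 and fell by 1.06 ± 0.35 (SD, n = 6; limma adjusted p 4.50e-04), 2.08-fold. Its 2 probes had -0.94 and -1.17. Gpc4, a glypican, fell by 0.52 ± 0.18 (SD, n = 6; limma adjusted p 0.00159). Gpc1 and Hs6st1, a heparan sulfate 6-O-sulfotransferase gene, also fell, by 0.31 and 0.36, and their calls were lost in 2 and 4 of 18 settings. Sdc3, the syndecan of neurons, rose by 0.43 ± 0.11 (SD, n = 6; limma adjusted p 0.00139). Ext1, which encodes a polymerase of the chain, rose by 0.60 ± 0.23 (SD, n = 6; limma adjusted p 0.00162). The partner of Ext1, Ext2, had -0.089 ± 0.12 (SD, n = 6) and did not pass.

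In the relay, 4 of 12 genes were called in eye (33.3%, beside 26.8% of all features), 2 higher and 2 lower. Pik3ca, the catalytic subunit gene of PI3 kinase, rose by 0.49 ± 0.16 (SD, n = 6; limma adjusted p 0.00158), with 0.50 and 0.47 at its 2 probes. Gab1, a docking protein gene, fell by 0.45 ± 0.20 (SD, n = 6; limma adjusted p 0.00401). Akt1, a kinase gene below PI3 kinase, fell by 0.22 ± 0.093 (SD, n = 6; limma adjusted p 0.0231), and its call was lost in 6 of 18 settings. Grb2, an adaptor gene, was called higher at 0.25 ± 0.099 (SD, n = 6; limma adjusted p 0.0158), but its probes disagreed in sign, with 0.58 and -0.086, and it had -0.031 with sighted RNA in Cy3 alone.

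Among the feedback inhibitors 1 of 6 was called in eye (16.7%, beside 26.8% of all features). Spry2, a Sprouty gene, fell by 0.22 ± 0.10 (SD, n = 6; limma adjusted p 0.0269). Its call was lost in 6 of 18 settings. Dusp4, a MAP kinase phosphatase gene, had -0.15 ± 0.23 and Il17rd, also known as Sef, -0.061 ± 0.12 (SD, n = 6 each), and neither passed.

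Of 8 target transcription factor genes tested in eye, 3 were lower and 0 higher (37.5% called). Of all features 26.8% were called, 11.0% lower and 15.9% higher. Egr1 had replicates from -1.96 to -1.19 and fell by 1.65 ± 0.31 (SD, n = 6; limma adjusted p 2.52e-05), 3.13-fold. After Fgf7 it had the lowest ratio of the ligand and pathway genes. Ets2 fell by 0.69 ± 0.14 (SD, n = 6; limma adjusted p 2.12e-04). Both are also induced by many signals other than FGF. Fos was called lower at -0.34 ± 0.092 (SD, n = 6; limma adjusted p 0.00329), but its probes had -0.76 and 0.070, so the call rested on 1 probe. Etv4 and Etv5, ETS genes long used as readouts of FGF signalling, had 0.16 ± 0.13 and 0.19 ± 0.19 (SD, n = 6 each) and did not pass (limma adjusted p = 0.114 and 0.128). In heart Egr1 had 0.68, 1.19 and 0.95, a mean of 0.94 ± 0.25 (SD, n = 3; limma adjusted p 0.568).

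**Figure D5:**
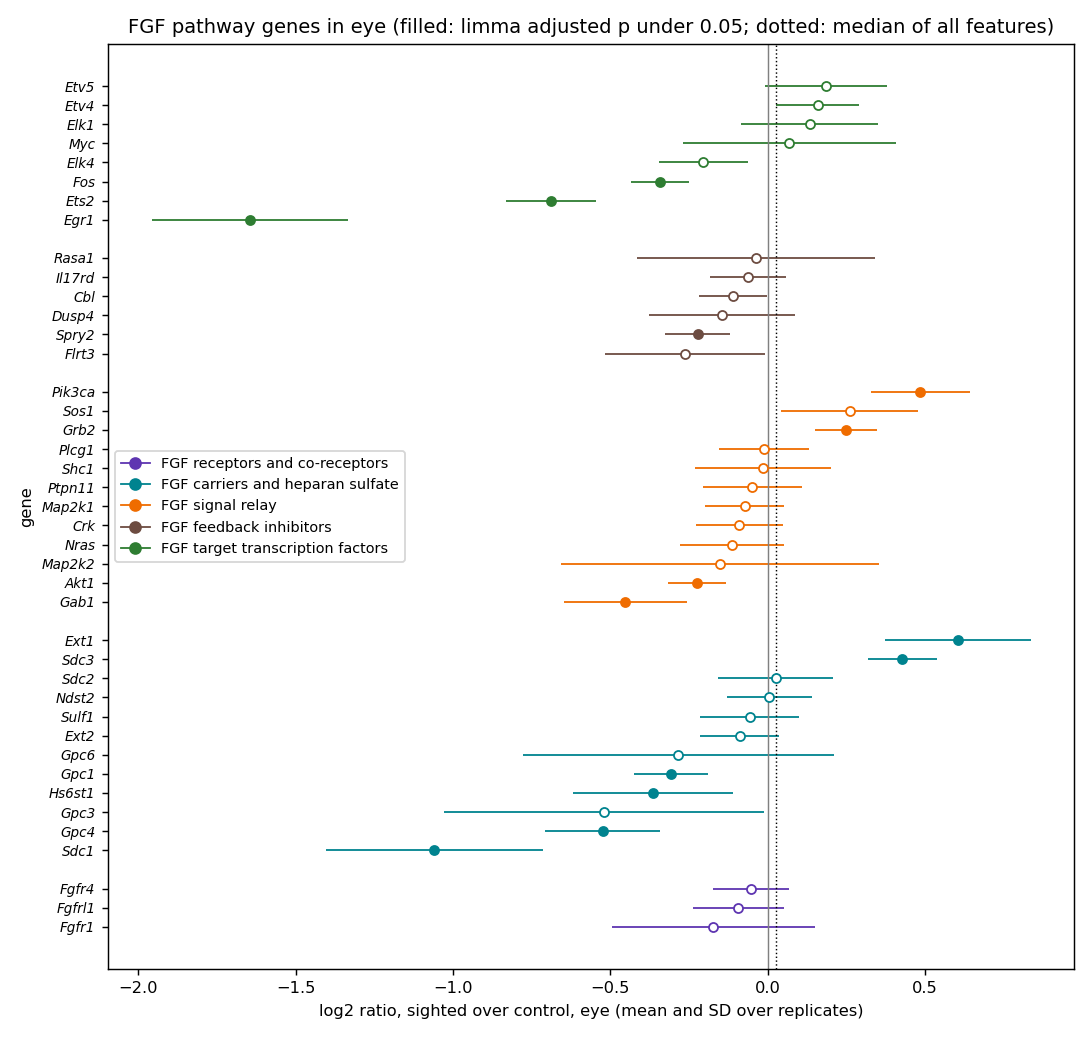
Log2 ratio of sighted over control RNA in eye for the 41 FGF pathway genes tested, coloured by role. Points are means and bars 1 SD over replicates, filled where limma called the gene, and the dotted line is the median of all features. Egr1 (-1.65) and Sdc1 (-1.06) lie lowest and Ext1 (0.60) highest.

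The marker lists were for cell types of the eye and of other tissue, with cardiomyocytes, a cell type of the heart, among them. The share of their genes called in the same comparison ran from 9.09% (stroma) to 100%, beside 26.8% of all features. Of 11 surface epithelium genes tested, 10 were lower in sighted eyes and 0 higher, with a median of -0.92. Krt12, the keratin of the corneal epithelium, had -1.36 ± 0.59 (SD, n = 6). Of 11 stroma and fibroblast genes, a cell type that makes Fgf7, 1 was higher and 0 lower, with a median of -0.12. The one was Fbln1, a fibulin gene, at 1.98 ± 0.17 (SD, n = 6), and Col1a2 and Dcn had -0.12 ± 0.37 and -0.020 ± 0.50 (SD, n = 6 each). The stromal ratios ranged from -0.23 to 1.98, beside -2.67 for Fgf7, and a link between them was not tested. Of 9 skeletal muscle genes 8 were lower and 1 higher, with a median of -0.94. All 3 red blood cell genes (median -1.22) and 8 of 11 immune cell genes (median -0.41) were lower. Of 9 lens genes 8 were higher and 1 lower, with a median of 0.56, and the 5 rod genes, from which the direction of the ratio was read, had a median of 5.10. Of 9 Mueller glia and astrocyte genes 3 were lower, of 7 cardiomyocyte genes 3 were lower, of 4 neuron genes 2 were higher and 1 lower, and of 3 pigment epithelium genes 1 was higher. In brain and heart 0 genes of these lists were called by limma, with 0 to 2 genes a list in brain and 0 to 3 in heart at an unadjusted p under 0.05. Their part in the FGF ratios was not tested.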

How the data were processed

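Organ RNA of sighted C3H mice and a control pool were compared on cDNA arrays of 20794 probes. Per the labels' protocols, Cy3 or Cy5 was attached by an indirect method. The authors deposited log2 ratios of Cy5 over Cy3. The log base and direction are not stated and were read from the values: the top value repeated on every eye array, 16.61, equals log2 of a round power of 10. The sources used here give no scanner, background correction or normalization. Brain array 3, labelled Cy5 in both channels, was read as sighted in Cy5. The source of brain array 5 is labelled sighted, with no organ.

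Repeated top values above 15 (4170) were set to missing. The sign was turned on arrays whose Cy3 channel held the sighted RNA. Each probe was averaged over its dye pair, which needed both arrays, and then over the probes of a gene. A gene could miss 1 replicate. Pairing follows array numbers, not a label: after removal of each orientation's mean, the correlation of paired arrays averaged 0.0763 (eye), 0.00453 (brain) and -0.0095 (heart). Limma 3.58.1 (R 4.3.3) tested the mean of each organ against 0, two-sided. The code was tested on simulated data. Of the probes, 12771 carried 1 symbol, 0 several and 8023 none, and symbols of 13 of 13 ligand genes were in the RefSeq table (GRCm38.p6), used for names and gene order.

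The members, gene lists and alternatives were chosen with earlier results of these data known. Named were all ligand genes. Of each pathway list and organ up to 4 called genes by smallest p were added, or the 1 of smallest p where none was called. The rule also took the 5 genes nearest to Fgf7, its neighbours in gene order, and up to 3 genes of each marker list with the largest ratio in eye, not all of which are printed. Named after their values were seen were Fgfr3, Fgfr4, Fgfrl1, Ext2, Gpc1, Hs6st1, Dusp4, Etv4, Etv5, Col1a2, Dcn, Ano1 and LTO1, the eye values of Il17rd, and the heart values of genes flagged for a sign opposite to eye. Fadd, Dpcd, Fbxw4 and 4833420G17Rik were also named after their values were seen. Alternatives covered pairing, centring, scaling, top values, missing values, single probes, 1 dye orientation, robust moderation, a filter on noisy genes and each replicate left out. No sequence is shown, since the ratios bear on no sequence in the sources used here.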

Additional observations from a re-analysis of the deposited data

Results flagged for a closer look

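A single replicate stood apart from the others of its group, by Dixon's test, in 9 of 89 sets of a gene and an organ that were looked at. Chance alone gives about 1 in 20 where sets are independent. These sets share arrays, and many of their genes were named by their values, so no excess is read from the count. Among the ligand genes, Fgf2 in eye had -0.87 in replicate 5 against -0.31 to -0.062 in the others, and Fgf14 in eye had 1.57 in replicate 6 against -0.24 to 0.096. Fgf9 in brain had -0.43 in replicate 6 against 0.14 to 0.37, and Fgf11 in heart had -0.23 in replicate 2 against 0.17 to 0.25. Of the pathway genes, Spry2 in eye had -0.42 in replicate 1 against -0.23 to -0.14. Of the marker genes, Krt12 in eye had -2.48 and Aldh3a1, a corneal crystallin gene, -2.15 in replicate 1, against -1.40 to -0.84 and -1.34 to -0.92. Pln, the phospholamban gene, had 0.055 in replicate 1 against -0.47 to -0.32, and Syt1, a synaptic vesicle gene, had 0.62 in replicate 6 against 0.31 to 0.37, both in eye.

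For 5 of the genes looked at, every replicate in eye had the sign opposite to every replicate in heart, and the difference was not tested. The share of all features with such a split was not counted, so nothing is read from the number of genes. Fgf15 had a log2 ratio of -0.41 in eye and 0.85 in heart, a difference of -1.26. Egr1 had -1.65 and 0.94, a difference of -2.59. The other 3 were Gab1 with -0.45 and 0.46 (-0.91), Akt1 with -0.22 and 0.58 (-0.81), and Fos with -0.34 and 0.23 (-0.58). None of the heart values passed limma.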

How the results depend on the processing

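Fgf7 in eye stayed below 0 in 18 of 18 settings, from -3.19 to -2.14, both ends being arrays of 1 dye orientation. The 4 ligand calls in eye became 2 with every array on its own, 5 with the dye pair as replicate block, and 2 to 3 without 1 replicate. The 14 pathway calls became 9, 17 and 12 to 14. Without the 20% of genes with most spread, 2 ligand genes were called higher and 4 lower in eye. The eye pathway calls, 4 higher and 10 lower, became 13 and 3 with sighted RNA in Cy5 only. In Cy3 only they became 0 and 17. Of all features called in eye, 92.3% were higher in Cy5 only and 14% in Cy3 only, so these splits followed the dye. The replicate block left the calls in brain and heart at 0. Centring the arrays gave 4 ligand and 17 pathway calls. In brain the 0 ligand and 0 pathway calls became 1 and 2 with sighted RNA in Cy5 only, and 2 and 3 in Cy3 only, with 736 and 1327 of all features called. These settings leave each probe's dye effect, and any shift of the whole array towards 1 dye, in the ratio. In heart both counts were 0 in every setting run. Called values that turned in sign in eye, or values called after turning, were Fgf10 (0.074) and Fgfr1 (0.38), with Slc27a2 (0.012), for sighted RNA in Cy5 only, Rdh5, a pigment epithelium gene, with Cy3 only (-0.012), Grb2 with Cy3 only (-0.031) and at 1 probe (-0.086), and Fos at 1 probe (0.070). Of the ligand genes not called in eye, Fgf1, Fgf2, Fgf3, Fgf4, Fgf8, Fgf11, Fgf14 and Fgf18 also crossed 0, each in 1 or 2 settings. Of the other ligand values, 219 stayed within 1 SD and 15 moved in eye, 226 and 4 in brain, and 125 and 10 in heart. For the pathway genes that the rule named in eye, 216 values kept their side of the threshold, 19 lost their call and 1 gained one. The other pathway genes, Gpc1 and Hs6st1 among them, are not in this count. Heart values rest on at most 4 replicates, and no signal over background was analysed here.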
